A study of Mus musculus with 16 samples.

Results

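The DNA damage repair genes described here are 31 mouse genes chosen by name, and their counts were compared across the 4 groups of libraries and library by library. All 31 were matched by symbol among 30141 gene identifiers, and all 31 passed the filter on low counts that left 18341 genes for testing. RNA came from LSK cells, sorted from bone marrow as negative for lineage markers and positive for Sca1 and Kit, a gate that contains haematopoietic stem cells and multipotent progenitors. There were 5 libraries of R882H cells under azacitidine, 4 of R882H under NaCl, 3 of WT under azacitidine and 4 of WT under NaCl. R882H cells carried a human DNMT3A R882H sequence knocked in behind a Lox-Stop-Lox cassette, alongside mouse WT DNMT3A, and the stop was removed by the interferon-inducible Mx1-Cre. Both Mx-Cre+ and Mx-Cre- donors received poly(I:C), the inducer of that promoter. It was given on 2 schedules, and the labels do not assign them to animals. Donor marrow was mixed with CD45.1 WT competitor marrow and transplanted, and the recipients were then given azacitidine at 2.5 mg per kg or 0.9% NaCl. Whether donor and competitor cells were parted in the sort, the age of the animals and whether each replicate number is a separate animal are not given in the labels. The p-values therefore measure the spread between these libraries, part of which may be technical.

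Repair genes keep the genome intact by several routes. Homologous recombination copies the sister DNA to mend a double-strand break, and the Fanconi proteins unhook crosslinks at stalled forks. ATM, ATR and the MRE11-RAD50-NBN complex sense the lesion and pass it to the checkpoint kinases CHEK1 and CHEK2. Base excision repair removes damaged or wrong bases, among them the thymine left when a methylated cytosine loses its amino group, which TDG and MBD4 take out. Azacitidine is a cytidine analogue that is built into nucleic acids and holds DNA methyltransferases on DNA, a lesion that cells have to repair. Haematopoietic stem cells are known to depend on the Fanconi genes.

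Total counts ran from 42412610 to 56012766 in R882H azacitidine libraries, 35860445 to 48078144 in R882H NaCl, 39862439 to 45011682 in WT azacitidine and 39303293 to 45429603 in WT NaCl. All 12 LSK markers were detected in each group. The targeted gene, Dnmt3a, checks the labels poorly here because the counts are of the mouse gene: it averaged 96.2 ± 4.54 CPM in R882H azacitidine (SD, n = 5), 90.5 ± 19.6 in R882H NaCl (n = 4), 105 ± 35.2 in WT azacitidine (n = 3) and 96.7 ± 9.84 in WT NaCl (n = 4). CPM is the count of a gene scaled to a common TMM-normalised library size. A pair of R882H NaCl libraries stood apart. Library 1 had the highest mean T and NK marker level, 4.07 on the log2 CPM scale, against -0.09 to 1.62 in the others. It was not the highest by summed CPM of those markers. The sum ran from 414 to 629 in R882H azacitidine, 325 to 753 in R882H NaCl, 470 to 934 in WT azacitidine and 352 to 717 in WT NaCl. Libraries 1 and 2 had erythroid marker levels of 6.34 and 6.31, against 2.15 to 4.87 in the others. Library 2 also had the lowest mean LSK marker level, 6.47, against 6.88 to 7.99 in the others. Of 12 mature B and plasma cell markers, which the sort should exclude, the summed level was 16431 to 48186 CPM in R882H azacitidine, 1015 to 22957 in R882H NaCl, 958 to 25883 in WT azacitidine and 2958 to 43733 in WT NaCl.

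No repair gene passed the test in any comparison. With edgeR's quasi-likelihood test and Benjamini-Hochberg adjustment over all genes tested, 0 of 31 were called at an adjusted p under 0.05 for azacitidine against NaCl in R882H, where 0.00545% of all genes were called. The count was also 0 of 31 for azacitidine against NaCl in WT and for the difference between the 2 responses, where 0% of all genes were called in each. For R882H against WT it was 0 of 31 under azacitidine and under NaCl, beside 0.00545% of all genes in each. Averaged over genotypes, azacitidine against NaCl gave 0 of 31, beside 0.0218% of all genes. At an unadjusted p under 0.05, Atm alone was counted for azacitidine in WT (6.02% of all genes) and for the difference between responses (6.07% of all genes). The other 4 comparisons held 0 of the 31 at that level, beside 6.69% of all genes for azacitidine in R882H, 6.85% for azacitidine averaged over genotypes, 9.34% for R882H against WT under azacitidine and 5.59% for R882H against WT under NaCl. DESeq2 and limma-voom also called 0 of 31 in each of the 6 comparisons. Among all genes, DESeq2 called 88 of 19527 for azacitidine in R882H, 50 of 19527 in WT and 161 of 20108 averaged over genotypes. It called 13 of 18377 for the difference between responses. For R882H against WT it called 21 of 18377 under azacitidine and 31 of 19527 under NaCl. Limma-voom called 0 to 3 of 18341 genes. DESeq2 put 1 of the 31 at an unadjusted p under 0.05 in 3 comparisons, where its share of all genes is not given here. In bulk RNA, fewer cells of a type and less RNA per cell cannot be told apart.

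The intervals show how large a change these libraries leave room for. The 95% interval lay wholly within a 2-fold change either way for 30 of 31 genes for azacitidine in R882H, the exception being Bard1. The same held for 24 of 31 genes for azacitidine in WT, 25 for R882H against WT under azacitidine and 28 under NaCl. For azacitidine averaged over genotypes it held for 31 of 31. For the difference between responses, which adds the errors of 4 groups, it held for 20 of 31. The median log2 change of the 31 genes was 0.02 for azacitidine in R882H (all genes tested -0.04), -0.11 in WT (all genes 0.01) and -0.07 averaged over genotypes (all genes -0.02). For R882H against WT it was 0.05 under azacitidine (all genes -0.02) and 0.02 under NaCl (all genes 0.03). For the difference between responses it was 0.11 (all genes -0.05). These medians describe the list and were not tested. A single library turned the sign of several: the median for azacitidine in R882H was -0.16 without R882H NaCl library 1 and 0.13 without library 2. For R882H against WT under NaCl it was 0.13 without library 1 and -0.18 without library 2. The averaged median was 0.04 without R882H NaCl library 2, the difference between responses -0.02 without R882H NaCl library 1, and the genotype median under azacitidine -0.02 without R882H azacitidine library 5.

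**Figure D1:**
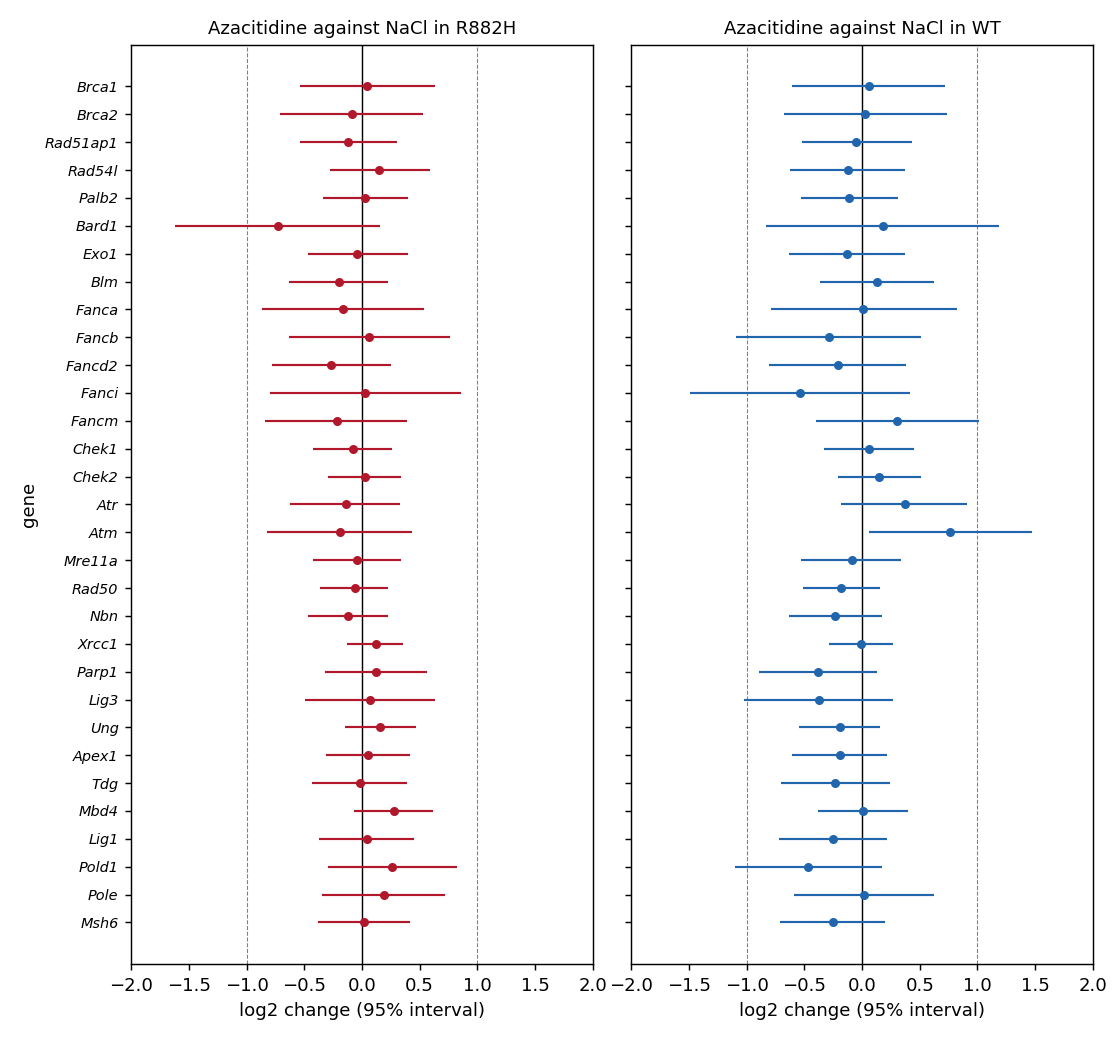
Log2 change for azacitidine against NaCl in R882H (left, red) and in WT (right, blue) for the 31 repair genes, on the horizontal axis, with points for the edgeR estimate and bars for its 95% interval; dashed lines mark a 2-fold change. In R882H, Bard1 lies farthest from 0 at -0.73, and in WT, Atm does at 0.76, with the interval of Atm in WT alone clear of 0.

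The genes differed widely in level. In WT NaCl libraries, the deposited FPKM, which divide by gene length and allow genes to be compared, were highest for Pold1, the catalytic subunit of DNA polymerase delta, at 72.4 ± 15 (SD, n = 4). Parp1, the enzyme that marks DNA breaks with poly(ADP-ribose), stood at 54.1 ± 12 and the replicative ligase Lig1 at 53.6 ± 10.2. The lowest were Fancm at 1.04 ± 0.342, the kinase Atr at 0.961 ± 0.172 and Bard1, the partner of BRCA1, at 0.812 ± 0.434. Of the synthesis, ligation and mismatch genes, Pold1, Lig1 and Msh6 were among the 5 highest and Pole stood at 4.81 ± 1.38. Brca2 at 2.96 ± 0.963, Brca1 at 2.64 ± 0.584 and Atm at 1.48 ± 0.415 lay near its foot. Neighbours in this order were mostly not distinct: of 30 neighbouring pairs, 3 had ranges that did not overlap (Msh6 above Nbn, Chek2 above Tdg, and Brca1 above Atm).

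**Figure D2:**
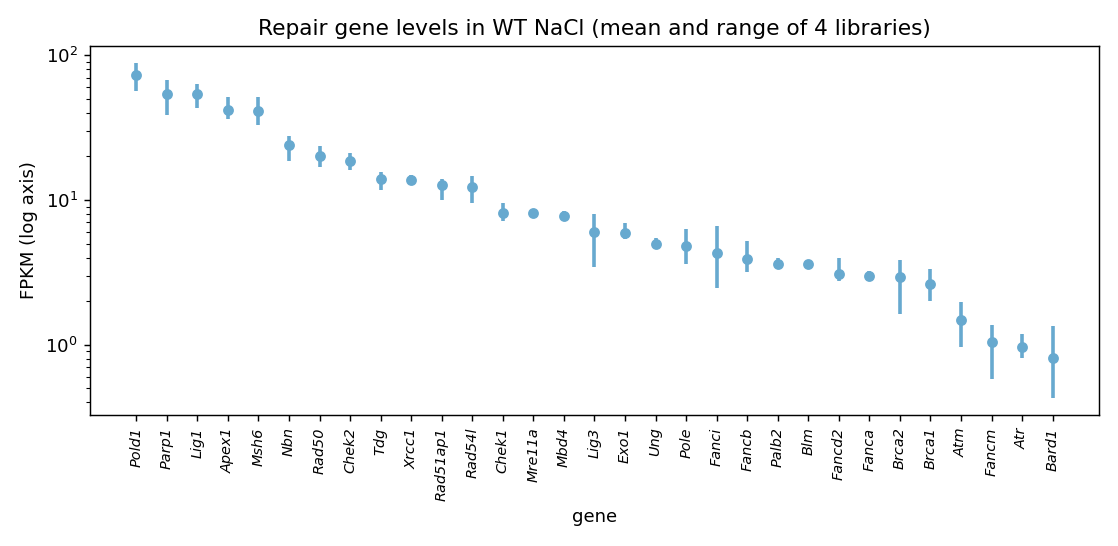
FPKM on a log axis in the 4 WT NaCl libraries for each of the 31 repair genes, in order of the mean; points are means and bars run from the lowest to the highest library. Levels run from 72.4 for Pold1 down to 0.812 for Bard1.

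The median within-group SD between libraries was 0.318 on the log2 scale for the repair genes, against 0.431 for all genes tested, a description with no test. The repair genes and all genes tested were not matched for level, so the lower SD cannot be read as a trait of repair genes. The base excision scaffold Xrcc1 varied least, at 0.139, followed by the uracil glycosylase Ung at 0.181 and Rad50 at 0.193. Fanci varied most, at 0.722, followed by Bard1 at 0.674 and the Fanconi core gene Fanca at 0.571. A pair of libraries often stood at the extremes, and their part in the SD was not computed. Library 2 of R882H NaCl was the highest of all 16 for 15 of 31 genes and the lowest for 0, while it was the highest for 18% of all genes tested. Library 1 of R882H NaCl was the lowest for 17 of 31 genes and the highest for 0, while it was the lowest for 16.8% of all genes tested. The mean log2 CPM of the 31 genes was 4.99 in R882H NaCl library 1 and 5.91 in library 2, and ran from 5.35 to 5.67 in the other 14.

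**Figure D3:**
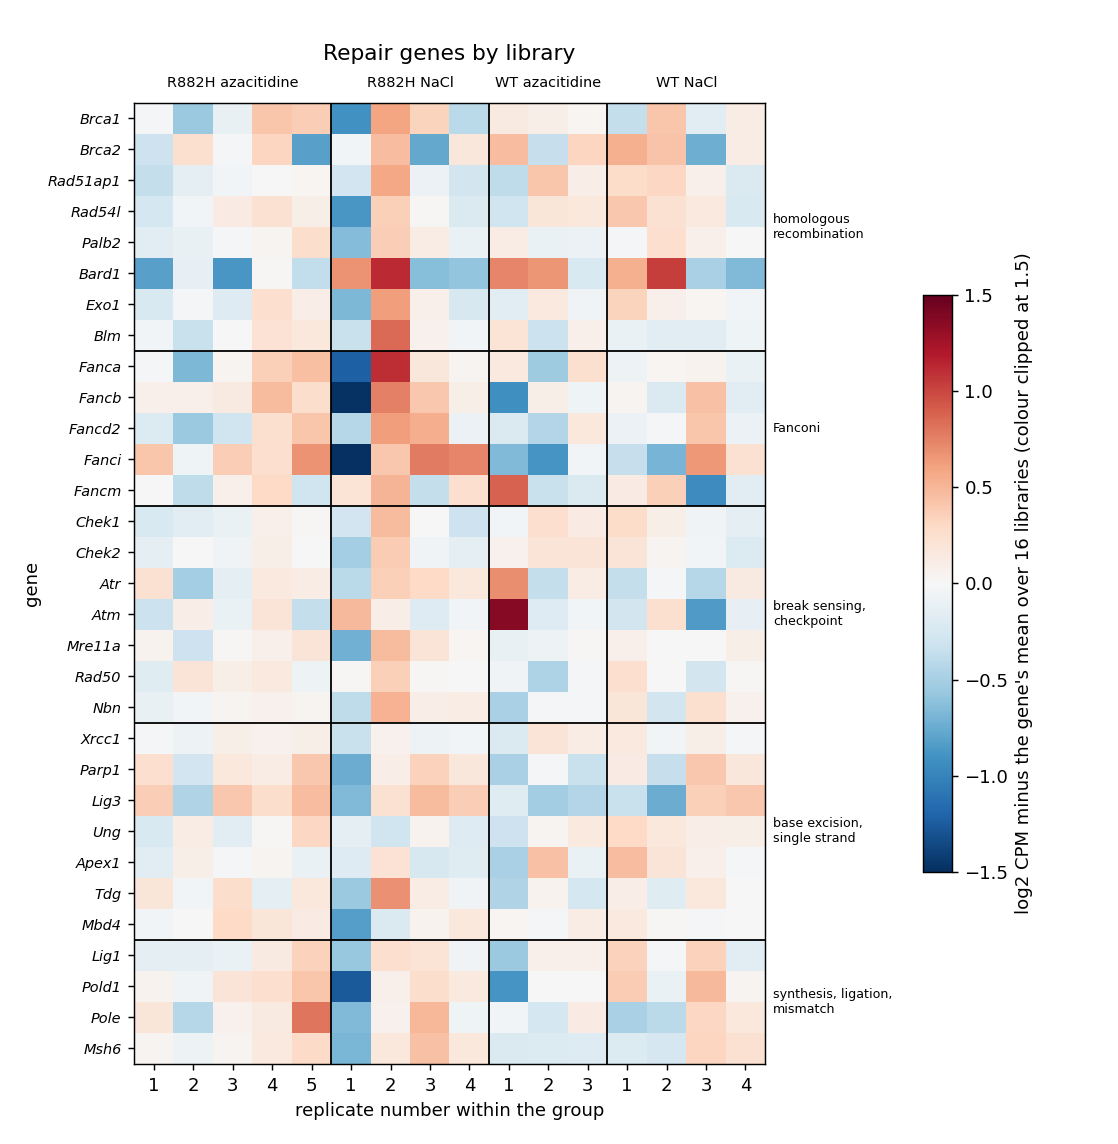
Log2 CPM of each repair gene (rows, grouped by role) in each library (columns, by group and replicate number), minus the mean of the gene over the 16 libraries; red is above and blue below that mean. Library 1 of R882H NaCl is mostly blue and library 2 mostly red, and Bard1 and Fanci differ between libraries 1 and 2 and the rest in opposite directions in WT NaCl.

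Cell cycle gene lists moved with those libraries. In R882H NaCl library 2 the mean log2 CPM was 7.54 for 27 replication genes and 7.46 for 26 mitotic genes, the highest of all 16 libraries for both. In R882H NaCl library 1 the replication mean was 6.57, next to the lowest value, 6.55 in WT azacitidine library 1. The part of cell cycle, B cell, T and NK, and erythroid content in the repair gene levels was not tested. By group, the mean of the 31 genes was 5.53 ± 0.14 in R882H azacitidine (SD, n = 5), 5.50 ± 0.38 in R882H NaCl (n = 4), 5.46 ± 0.04 in WT azacitidine (n = 3) and 5.53 ± 0.04 in WT NaCl (n = 4).

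**Figure D4:**
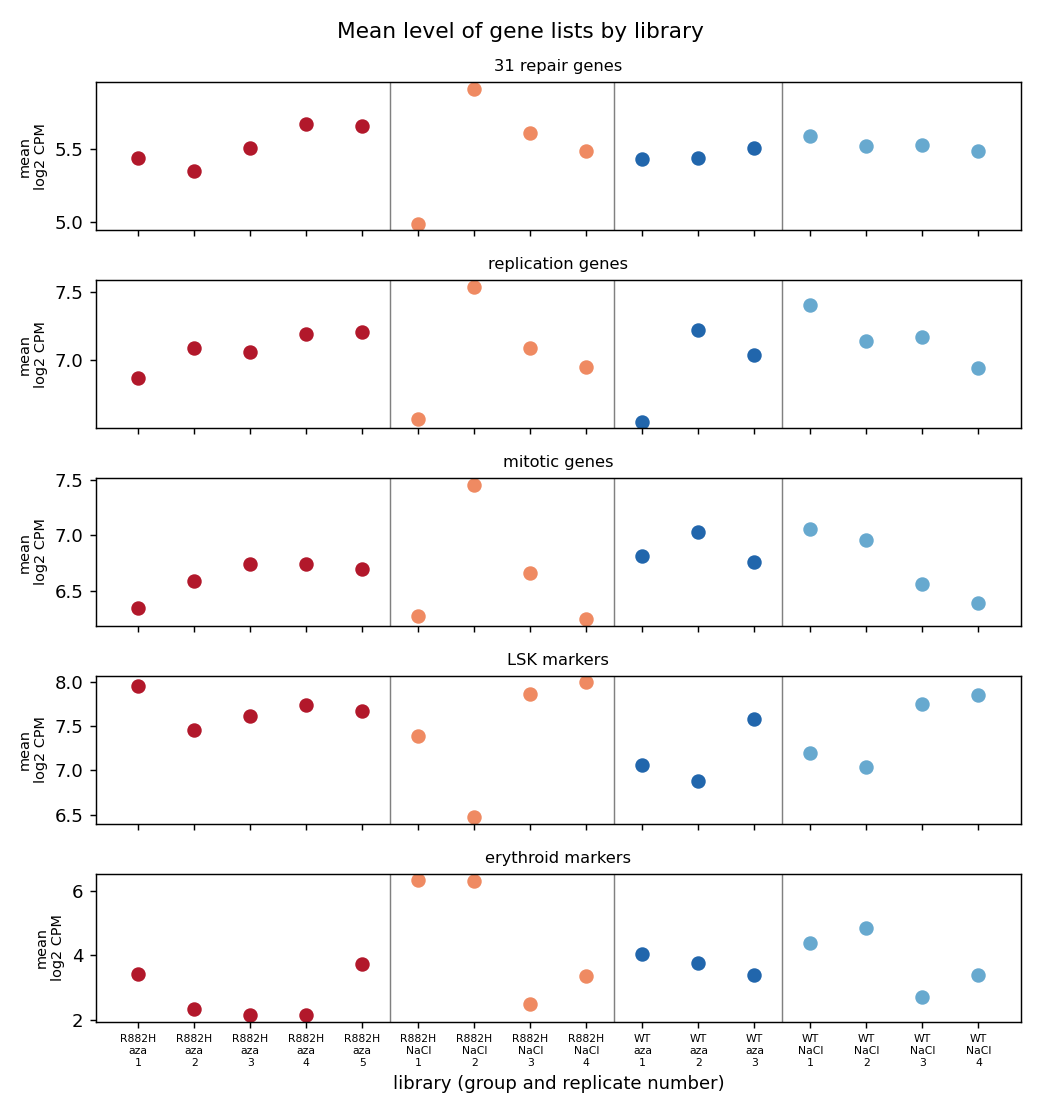
Mean log2 CPM (prior count 2) of the 31 repair genes, 27 replication genes, 26 mitotic genes, 12 LSK markers and 12 erythroid markers in each library, by group and replicate number. In R882H NaCl the repair genes stand at 4.99 in library 1 and 5.91 in library 2, and the replication and mitotic genes are highest in library 2.

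Among the homologous recombination genes, 3 of 8 had a positive and 5 a negative log2 change for azacitidine in R882H, and 4 and 4 in WT. Values below follow the replicate numbers within each group. Brca1, which directs a break into recombination, stood at 22.8, 15.7, 21.4, 30.8 and 29.9 CPM in R882H azacitidine, against 12.3, 34.8, 29.1 and 17.4 in R882H NaCl. In WT, Brca1 stood at 25.4, 24.6 and 23.6 CPM under azacitidine, against 18, 30.9, 20.6 and 25 under NaCl. The groups overlapped, and the change averaged over genotypes was 0.05 (SE 0.21, edgeR adjusted p = 0.999). Brca2, a tumour suppressor needed for recombination, stood at 30.5, 44.8, 37.1, 47.3 and 21.6 CPM in R882H azacitidine, against 36.8, 52.5, 22.3 and 42.7 in R882H NaCl. In WT, Brca2 stood at 52.4, 29.9 and 47.3 CPM under azacitidine, against 54.7, 50.9, 22.8 and 41.1 under NaCl. Again the groups overlapped, with an averaged change of -0.03 (SE 0.22, edgeR adjusted p = 0.999). Rad51ap1, another recombination gene, had 45.4, 53, 56.5, 58.5 and 59.7 CPM in R882H azacitidine, against 47.9, 87, 54.7 and 48 in R882H NaCl. In WT it had 44.8, 77.8 and 62.3 CPM under azacitidine, against 70.6, 72.3, 61.2 and 50.3 under NaCl. Library 2 of R882H NaCl was the highest of the 16, and the averaged change was -0.08 (SE 0.15, edgeR adjusted p = 0.999).

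Bard1 had the lowest p of the 31 genes for azacitidine in R882H. It stood at 2.28, 3.68, 2.19, 4.04 and 3.09 CPM in R882H azacitidine, against 6.4, 8.68, 2.58 and 2.66 in R882H NaCl. In WT, Bard1 stood at 6.66, 6.36 and 3.41 CPM under azacitidine, against 5.8, 8.21, 2.86 and 2.53 under NaCl. The high libraries were those numbered 1 and 2 in R882H NaCl and in both WT groups, and the libraries numbered 3 and 4 in those groups lay within the range of R882H azacitidine. The change in R882H was -0.73 (SE 0.42, 95% interval -1.62 to 0.16, edgeR adjusted p = 0.781), with overlapping groups. Without libraries 1 and 2 of R882H NaCl it was 0.22. Blm, the helicase that dissolves joined DNA molecules, was among the lowest p for R882H against WT under NaCl, at 28.5, 64.6, 37.6 and 35 CPM in R882H, against 33.6, 32, 32.1 and 34.2 in WT. The difference was 0.33 (SE 0.21, edgeR adjusted p = 0.96), and 0.03 without R882H NaCl library 2. Under azacitidine Blm stood at 35, 28.4, 35.6, 41.6 and 39.9 CPM in R882H, against 41.5, 28.6 and 37.9 in WT.

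Of the 5 Fanconi genes, 2 had a positive change for azacitidine in each genotype. Fancd2, whose protein is clamped on DNA when a crosslink is found, had 21.1, 16.6, 19.8, 28.8 and 32.6 CPM in R882H azacitidine, against 18.1, 37.7, 35.5 and 23 in R882H NaCl. In WT it had 20.9, 18 and 27.2 CPM under azacitidine, against 22.9, 24, 32.5 and 23 under NaCl. The groups overlapped, and the averaged change was -0.24 (SE 0.19, edgeR adjusted p = 0.985). Fanci, the partner of FANCD2, was singled out after its values were seen. It stood at 33.2, 23.7, 32.2, 29.5 and 39.5 CPM in R882H azacitidine, against 7.14, 32.8, 42.5 and 41.2 in R882H NaCl. In WT, Fanci stood at 15.7, 13.4 and 24.2 CPM under azacitidine, against 19.6, 15.3, 39.1 and 29.1 under NaCl. Libraries 1 and 2 were the low ones in R882H NaCl and in both WT groups, the reverse of Bard1. The R882H against WT difference under azacitidine was 0.83 (SE 0.44, edgeR adjusted p = 0.541), with overlapping groups. Fanci, with 5774 counted bases, shares 921 exon bases with Polg, on the other strand, and Polg averaged 83.2 CPM. The strand setting of the counts is not given in the sources used here, so reads from the shared bases cannot be told apart.

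Replicate numbers separated 5 repair genes in both NaCl groups, 4 of them in the same direction in both, which is given as a description, with no test, since the meaning of the numbers is not in the labels. Bard1 was higher in both libraries 1 and 2 than in libraries 3 and 4 of R882H NaCl and of WT NaCl, as were 18.5% of all genes tested. Fanci, Parp1 and Lig3 were lower in both, as were 18.3% of all genes tested. Mbd4 was lower in libraries 1 and 2 of R882H NaCl and higher in libraries 1 and 2 of WT NaCl. With WT azacitidine added, Bard1 was still separated (9.11% of all genes) and so was Fanci (9.82% of all genes). The 300 bases around the start of Bard1, Fanci, Parp1 and Lig3, from 250 before to 50 after, are shown because these genes divide the libraries in opposite directions. The sequences are from RefSeq on GRCm38.p6, 5′ to 3′ on the gene's own strand, with capitals for a match to GGCGGGA, an E2F site letter pattern, or TTTGAA, the CHR element pattern, or their reverse complements. Bard1 lies at chr1:71102923-71103222 on the minus strand, Fanci at chr7:79392088-79392387 on the plus strand, Parp1 at chr1:180568641-180568940 on the plus strand and Lig3 at chr11:82780859-82781158 on the plus strand.
Bard1: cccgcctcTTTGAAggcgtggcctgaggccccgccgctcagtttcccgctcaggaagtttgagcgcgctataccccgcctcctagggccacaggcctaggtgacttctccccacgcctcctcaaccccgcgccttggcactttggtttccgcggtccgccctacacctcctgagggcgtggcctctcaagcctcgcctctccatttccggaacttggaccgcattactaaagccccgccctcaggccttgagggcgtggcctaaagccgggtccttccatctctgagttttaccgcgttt
Fanci: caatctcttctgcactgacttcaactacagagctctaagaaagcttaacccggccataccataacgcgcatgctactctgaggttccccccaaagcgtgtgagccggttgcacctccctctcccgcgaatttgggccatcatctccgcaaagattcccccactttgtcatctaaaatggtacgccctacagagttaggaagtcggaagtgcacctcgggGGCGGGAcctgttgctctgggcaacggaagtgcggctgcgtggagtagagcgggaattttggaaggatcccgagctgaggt
Parp1: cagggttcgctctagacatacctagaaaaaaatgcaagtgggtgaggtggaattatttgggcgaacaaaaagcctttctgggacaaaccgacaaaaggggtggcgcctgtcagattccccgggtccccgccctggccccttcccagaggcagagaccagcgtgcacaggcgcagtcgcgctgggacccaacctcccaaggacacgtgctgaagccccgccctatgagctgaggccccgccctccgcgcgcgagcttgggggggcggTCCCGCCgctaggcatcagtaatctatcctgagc
Lig3: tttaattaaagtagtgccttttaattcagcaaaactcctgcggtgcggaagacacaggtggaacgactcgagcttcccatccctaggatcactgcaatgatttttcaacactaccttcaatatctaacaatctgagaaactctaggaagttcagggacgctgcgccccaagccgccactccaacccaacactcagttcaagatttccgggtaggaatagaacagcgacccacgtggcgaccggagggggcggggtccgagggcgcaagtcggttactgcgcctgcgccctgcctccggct

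The 4 windows hold 23, 17, 20 and 19 CpG dinucleotides in that order. Over the 29 RefSeq windows found for 26 of the 31 genes, the median was 22 (5 to 37), against 7 over all 32851 windows. GGCGGGA occurred in 13 of 29 windows (44.8%) against 11.3% of all windows, and the stricter E2F letters TTCGCGC or TTGGCGC in 5 (17.2%) against 3.89%. The NF-Y box CCAAT occurred in 17 (58.6%) against 37.4%, and the GC box GGGCGG, whose letters overlap GGCGGGA, in 21 (72.4%) against 35.7%. TTTGAA occurred in 1 window, that of Bard1 (3.45%), against 17.9% of all windows, and TATAAA in 3 (10.3%) against 13.6%. Both strands were searched, and a match of letters is a description and not a site. Lig1 and Rad54l have more than 1 window each, and those of Rad54l nearly coincide, so the counts are of windows and not of genes. All windows were not matched for CpG content (median 22 against 7), so the shares cannot be read as a trait of repair genes.

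**Figure D5:**
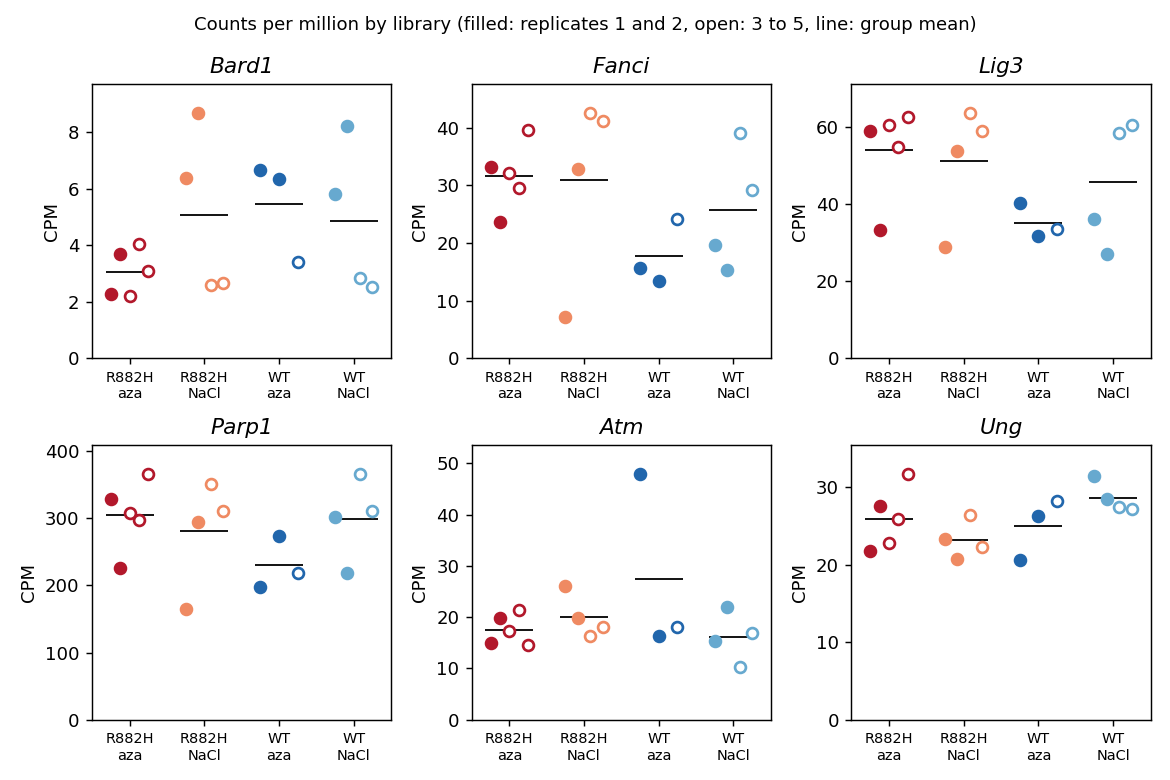
CPM in each library for Bard1, Fanci, Lig3, Parp1, Atm and Ung, by group; filled points are replicates 1 and 2, open points replicates 3 to 5, and lines are group means. In both NaCl groups, filled points lie above the open ones for Bard1 and below them for Fanci, Lig3 and Parp1, and WT azacitidine library 1 stands alone for Atm at 47.8.

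Among the 7 break sensing and checkpoint genes, 1 had a positive change for azacitidine in R882H and 4 in WT. Atm, the kinase that answers double-strand breaks, had the lowest p of the 31 genes for azacitidine in WT. It stood at 14.9, 19.9, 17.3, 21.3 and 14.5 CPM in R882H azacitidine, against 26, 19.9, 16.3 and 18.1 in R882H NaCl. In WT it stood at 47.8, 16.3 and 18.1 CPM under azacitidine, against 15.3, 21.9, 10.3 and 17 under NaCl. Library 1 alone was high, and the other WT azacitidine libraries lay within the range of WT NaCl. The change in WT was 0.76 (SE 0.33, 95% interval 0.06 to 1.47, edgeR adjusted p = 0.825), and 0.09 without that library. The difference between responses, R882H minus WT, was -0.96 (SE 0.44, edgeR adjusted p = 0.763), and -0.29 without it. For R882H against WT under azacitidine Atm gave -0.64 (SE 0.32, edgeR adjusted p = 0.539), and 0.03 without it. The averaged azacitidine change was 0.29 (SE 0.22, edgeR adjusted p = 0.985), and -0.05 without it. The same library was the highest of 16 for Atr, the kinase of stalled forks, at 42.9 CPM, and for Fancm, at 22.2 CPM, and it was the highest for 14.2% of all genes tested. Repeat families took 10.1% of its counts, against 2.97 to 6.81% in the other libraries, and the part of this in the values was not tested.

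Chek1, the effector kinase of ATR, had 32.4, 33.9, 35.3, 40 and 38.4 CPM in R882H azacitidine, against 31.1, 52.8, 37.7 and 30.5 in R882H NaCl. In WT it had 36.7, 45.1 and 41.3 CPM under azacitidine, against 45.9, 40.4, 36.6 and 34.5 under NaCl. The groups overlapped, with an averaged change of -0.01 (SE 0.12, edgeR adjusted p = 1). Nbn, a subunit of the break-sensing complex, had the lowest p for azacitidine averaged over genotypes. It stood at 56.4, 59.2, 62.7, 63.8 and 63 CPM in R882H azacitidine, against 46.7, 87.5, 65.6 and 65.9 in R882H NaCl. In WT, Nbn stood at 43.5, 59.6 and 59.8 CPM under azacitidine, against 69.3, 50.4, 72 and 63.6 under NaCl. The averaged change was -0.18 (SE 0.13, 95% interval -0.44 to 0.09, edgeR adjusted p = 0.958), with overlapping groups. Of the rest, Chek2, Mre11a and Rad50 had azacitidine changes between -0.18 and 0.15 in either genotype, while Atr had -0.14 in R882H and 0.37 in WT (SE 0.26, edgeR adjusted p = 0.884).

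The base excision and single-strand break genes mostly had estimates of opposite sign in the 2 genotypes, with none called. For azacitidine, 6 of 7 were positive in R882H (median 0.12) and 6 of 7 negative in WT (median -0.19). Of all genes, 44.3% were positive in R882H and 51.8% in WT. The mean log2 CPM of the 7 was 5.52 in R882H NaCl library 1, against 6.04 to 6.12 in the others of its group. In WT azacitidine library 1 it was 5.71, against 5.9 and 6.04. R882H azacitidine libraries ran from 5.92 to 6.22 and WT NaCl from 5.88 to 6.18. The part of the libraries numbered 1 in these signs was not tested. The difference between responses was positive for 7 of 7, from 0.12 for Xrcc1 to 0.50 for Parp1, where 46.0% of all genes were positive. The smallest edgeR adjusted p among the 7 for that difference was 0.765. It was also positive for 19 of 27 replication genes and for 12 of 12 LSK markers, with 0 called by edgeR in either list. For markers of other cells, the difference was positive for 12 of 12 mature B and plasma cell markers (median 1.07) and 0 of 12 erythroid markers (median -2.21). Of these markers 0 were called by edgeR, and their part in the result was not tested. Parp1 stood at 328, 226, 308, 298 and 365 CPM in R882H azacitidine, against 165, 295, 351 and 311 in R882H NaCl. In WT it stood at 197, 274 and 219 CPM under azacitidine, against 301, 218, 365 and 310 under NaCl. The change in WT was -0.38 (SE 0.24, edgeR adjusted p = 0.877), and the averaged change was -0.13 (SE 0.16, edgeR adjusted p = 0.999), with overlapping groups.

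Ung, which removes uracil from DNA, had the lowest p for R882H against WT under NaCl and was the one repair gene whose libraries did not overlap there. It stood at 23.3, 20.7, 26.4 and 22.3 CPM in R882H NaCl, against 31.4, 28.4, 27.4 and 27.1 in WT NaCl. All 4 R882H libraries lay below all 4 of WT, as in 1.09% of all genes tested (1.97% in either direction). The difference was -0.30 (SE 0.15, 95% interval -0.63 to 0.03, edgeR adjusted p = 0.91). Under azacitidine Ung stood at 21.7, 27.5, 22.8, 25.8 and 31.6 CPM in R882H, against 20.6, 26.2 and 28.2 in WT, with overlapping groups. The averaged azacitidine change was -0.02 (SE 0.11, edgeR adjusted p = 0.999).

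Tdg and Mbd4, the thymine glycosylases, act on products of cytosine methylation. Tdg had 87.2, 74.9, 92.8, 70 and 86.3 CPM in R882H azacitidine, against 52.3, 124, 83 and 74.1 in R882H NaCl. In WT it had 56.5, 79.9 and 64.2 CPM under azacitidine, against 82.7, 67.8, 85.9 and 77 under NaCl. The averaged change was -0.12 (SE 0.15, edgeR adjusted p = 0.999), and a pseudogene named Tdg-ps may share reads with it. Mbd4 had 40.6, 42, 51.2, 47.2 and 45.5 CPM in R882H azacitidine, against 23.6, 35.9, 43.5 and 46.6 in R882H NaCl. In WT, Mbd4 had 42.6, 41.4 and 45.1 CPM under azacitidine, against 46.4, 42.2, 41.4 and 41.5 under NaCl. Its change in R882H was 0.28 (SE 0.16, 95% interval -0.07 to 0.62, edgeR adjusted p = 0.787), and 0.11 without R882H NaCl library 1, the lowest of the 16. The averaged change was 0.14 (SE 0.12, edgeR adjusted p = 0.999).

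Lig3, the ligase that closes single-strand breaks, had the lowest p for R882H against WT under azacitidine. It stood at 58.8, 33.2, 60.3, 54.7 and 62.6 CPM in R882H azacitidine, against 40.3, 31.7 and 33.5 in WT azacitidine. Library 2 of R882H lay within the WT range and the other 4 lay above it. The difference was 0.62 (SE 0.29, 95% interval -0.00 to 1.24, edgeR adjusted p = 0.535). Under NaCl Lig3 stood at 28.9, 53.6, 63.5 and 58.8 CPM in R882H, against 36.2, 27.1, 58.4 and 60.5 in WT, with overlapping groups. Lig3, with 7284 counted bases, shares 1826 exon bases with Rffl on the other strand, at a mean of 60.3 CPM. Reads from the shared bases cannot be told apart. Apex1, the endonuclease that cuts at an abasic site, shares 877 of 1422 counted bases with Pip4p1 in the same way. Rad54l shares 1184 bases with Lrrc41, and Fanca 920 with Zfp276.

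Of the synthesis, ligation and mismatch genes, 4 of 4 had a positive change for azacitidine in R882H (44.3% of all genes) and 1 of 4 in WT (51.8%). Their mean log2 CPM was 6.56 in R882H NaCl library 1, against 7.4 to 7.70 in the others of its group and 7.17 to 7.81 in R882H azacitidine. In WT azacitidine it was 6.92 in library 1, against 7.25 and 7.35, with 7.16 to 7.72 in WT NaCl. The part of the libraries numbered 1 in these signs was not tested. Pold1 had the second lowest p for the difference between responses. It stood at 325, 303, 360, 373 and 419 CPM in R882H azacitidine, against 131, 332, 376 and 347 in R882H NaCl. In WT, Pold1 stood at 170, 314 and 314 CPM under azacitidine, against 411, 294, 441 and 324 under NaCl. The library numbered 1 was far below the others of its group in R882H NaCl and in WT azacitidine. The difference was 0.73 (SE 0.40, 95% interval -0.11 to 1.57, edgeR adjusted p = 0.763), and 0.26 without those 2 libraries. Lig1 stood at 195, 195, 202, 237 and 276 CPM in R882H azacitidine, against 146, 257, 250 and 208 in R882H NaCl. In WT, Lig1 stood at 147, 228 and 228 CPM under azacitidine, against 276, 212, 274 and 193 under NaCl. The groups overlapped, and the averaged change was -0.11 (SE 0.15, edgeR adjusted p = 0.999).

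Msh6, which recognises mispaired bases, was the one repair gene whose libraries did not overlap between genotypes under azacitidine. It stood at 183, 169, 183, 198 and 218 CPM in R882H, against 153, 155 and 156 in WT. Separation in that direction was seen in 5.05% of all genes tested, and in 10.7% in either direction. The difference was 0.30 (SE 0.21, edgeR adjusted p = 0.599). Under NaCl Msh6 stood at 111, 199, 241 and 199 CPM in R882H, against 155, 150, 223 and 208 in WT, with overlapping groups. The averaged azacitidine change was -0.12 (SE 0.14, edgeR adjusted p = 0.999). For azacitidine against NaCl, 0 of 31 repair genes had separated groups in R882H (1.57% of all genes), in WT (5.73%) or over both genotypes (0.213%).

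A wider list of 116 other repair genes gave 0 edgeR calls in each of the 6 comparisons, with medians of 0.04 for azacitidine in R882H and -0.01 in WT. Its lowest p for azacitidine in WT belonged to Mdc1, a scaffold at DNA breaks, at 0.92 (SE 0.37, edgeR adjusted p = 0.825), and to Prkdc, the end-joining kinase, at 0.80 (SE 0.34, edgeR adjusted p = 0.825). Mdc1 stood at 37.3, 12.9 and 13.1 CPM in WT azacitidine, against 7.32, 15.6, 9.09 and 12.6 in WT NaCl. Prkdc stood at 58.1, 17.4 and 25.8 CPM in WT azacitidine, against 17.9, 25.9, 12.9 and 21 in WT NaCl. Library 1 of WT azacitidine, the one high for Atm, was the high one for both. These genes and Sprtn, a protease for DNA-protein crosslinks, also held the lowest p for the genotype comparison under azacitidine or for the difference between responses. Sprtn stood at 7.69, 5.05, 6.73, 6.67 and 9.16 CPM in R882H azacitidine, against 11.1, 13.5, 10.3 and 5.41 in R882H NaCl. In WT, Sprtn stood at 18, 11.2 and 8.23 CPM under azacitidine, against 5.45, 9.92, 6.15 and 8.57 under NaCl. Its difference between responses was -1.24 (SE 0.44, edgeR adjusted p = 0.763), and library 1 of WT azacitidine was again the highest.

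In the remaining comparisons, Hmces, a shield for abasic sites, and Parp3 had the lowest p for azacitidine in R882H, at 0.32 (SE 0.13, edgeR adjusted p = 0.685) and 0.57 (SE 0.28, edgeR adjusted p = 0.761). Hmces stood at 60.9, 77.7, 73.2, 67.1 and 64.2 CPM in R882H azacitidine, against 53.6, 58.2, 53.6 and 54.2 in R882H NaCl, without overlap. Of the 116 genes, 2 had separated groups there, beside 1.57% of all genes in either direction. Parp3 stood at 40.4, 29.8, 41.8, 25.3 and 34.5 CPM in R882H azacitidine, against 17.9, 11.7, 27.4 and 35.6 in R882H NaCl, with overlap. For R882H against WT under NaCl they were Rmi2, a partner of BLM, at -0.67 (SE 0.21, edgeR adjusted p = 0.797), and the adenine glycosylase Mutyh at -0.68 (SE 0.23, edgeR adjusted p = 0.797). Rmi2 stood at 20.4, 25.8, 26 and 24.5 CPM in R882H NaCl, against 48.5, 46.9, 32.6 and 26 in WT NaCl, where the highest R882H library and the lowest WT library were close. Mutyh stood at 14.3, 9.91, 19.3 and 21.3 CPM in R882H NaCl, against 32.2, 24.2, 23 and 24.4 in WT NaCl, without overlap. Of the 116 genes, 4 had all R882H libraries below all WT libraries there, beside 1.09% of all genes. Averaged over genotypes, Rad51c, a recombination gene, had a change of 0.49 (SE 0.18, edgeR adjusted p = 0.547) and the meiotic recombinase Dmc1 0.60 (SE 0.27, edgeR adjusted p = 0.707). Both had low levels. Rad51c stood at 3.07, 3, 2.07, 3.72 and 3.73 CPM in R882H azacitidine, against 1.65, 2.46, 2.78 and 2.54 in R882H NaCl, with overlap. In WT it stood at 3.36, 3.38 and 4 CPM under azacitidine, against 3.19, 2.21, 2.3 and 1.92 under NaCl, without overlap (5.73% of all genes in either direction). Dmc1 ran from 0.642 to 3.63 CPM over the 16 libraries, with overlap in both genotypes.

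Genes downstream of the damage response gave no edgeR call either, and their DESeq2 results are not given here. Of 27 targets of p53, the factor that damage kinases activate, 17 had a positive change for azacitidine averaged over genotypes (46.5% of all genes were positive) and 0 were called by edgeR. The lowest adjusted p was that of Btg2, a brake on cell division, at 0.75 (SE 0.18, edgeR adjusted p = 0.217). At an unadjusted p under 0.05 there were 4 of the 27, all positive, beside 6.85% of all genes in either direction. Besides Btg2 they were Cdkn1a at 0.72 (SE 0.21, edgeR adjusted p = 0.345), Trp53inp1 at 0.52 (SE 0.25, edgeR adjusted p = 0.725) and Bbc3 at 0.28 (SE 0.12, edgeR adjusted p = 0.665). Of 27 replication genes, 26 had a negative averaged change, with a median of -0.10 against -0.02 for all genes tested. With edgeR, 0 were called or had an unadjusted p under 0.05. The mean log2 CPM of these genes was highest of the 16 libraries in R882H NaCl library 2 (7.54) and lowest in WT azacitidine library 1 (6.55). The part of those libraries in the signs was not tested.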

How the data were processed

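RNA of 16 libraries of sorted LSK cells was amplified with a low-input cDNA kit, per the labels' protocols. The authors deposited unnormalised counts for genes and repeat families; the submitters' processing notes name HISAT2 2.0.5, featureCounts 1.6.2, edgeR 3.26.6 and the build GRCm38 (mm10). Strand and multi-mapping settings are not given in the sources used here. The deposited FPKM are the same counts scaled by length and library size, and were used only to set genes side by side. A deposited length in bases, another unit, accompanies each feature. Of 30141 gene identifiers, 30100 had a symbol.

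Genes passing filterByExpr (18341) were fitted in R 4.3.3 with edgeR 4.0.16, TMM and a quasi-likelihood model with 1 coefficient per group over all 16 libraries, at a biological coefficient of variation of 40.7%. The 6 comparisons were adjusted by Benjamini-Hochberg over all genes tested. The code was tested on simulated data. Alternatives included DESeq2 1.42.0 and limma 3.58.1 (voom). List levels are mean log2 CPM with a prior count of 2. Amplified reads carry no molecular identifiers, so errors cover the spread between libraries. Promoter windows came from RefSeq, and gene overlaps from GENCODE. Per-library values are given for 13 genes standing for each role and for the 2 lowest p per comparison. Of other repair genes, the 2 lowest p per comparison are named, most with the values of the groups compared. The members, roles and lists were chosen with earlier results of these data known.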

Additional observations from a re-analysis of the deposited data

Results flagged for a closer look

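In groups of 4 or 5 libraries, 5 of 93 gene and group sets had 1 library farther from the rest than Dixon's 95% limit allows, and chance alone gives about 1 in 20. Lig3 stood at 33.2 CPM in R882H azacitidine library 2, against 54.7 to 62.6 CPM in the other libraries of its group. Library 2 of R882H NaCl was high for Rad50, at 144 CPM against 112 to 114, and for Apex1, at 64 CPM against 46.7 to 48.5. In WT NaCl, Fancd2 stood at 32.5 CPM in library 3, against 22.9 to 24, and Mbd4 at 46.4 CPM in library 1, against 41.4 to 42.2. For 0 of the 31 genes did all libraries of the 2 genotypes separate in opposite directions under azacitidine.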

How the results depend on the processing

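The count of repair genes called was 0 in all 6 comparisons under each alternative setting run, 26 for 4 comparisons and 25 for the averaged change and the difference between responses, which use all groups. Over all of these the smallest adjusted p was 0.127. At most 7 repair genes had an unadjusted p under 0.05, for R882H against WT under azacitidine without libraries 1 and 2 of R882H NaCl. The share of all genes at that level is not given for this setting. Neither library is in the groups compared, but all groups share an estimate of the spread. Without them, 1 of 18707 genes was called for that comparison and 102 for azacitidine averaged over genotypes. Some estimates turned sign, and none was called. Without libraries 1 and 2 of R882H NaCl, Bard1 in R882H was 0.22, and the averaged azacitidine changes were 0.09 for Brca2, 0.06 for Chek1 and 0.01 for Rad51ap1. Without the libraries numbered 1 of R882H NaCl and WT azacitidine, Atm for R882H against WT under azacitidine was 0.05, and the averaged changes were -0.07 for Brca1 and 0.04 for Ung. With limma-voom, Chek1 was 0.01. Leaving out each library in turn, Atm ranged from -0.90 to 0.03 for R882H against WT under azacitidine. The averaged changes ranged from -0.05 to 0.42 for Atm, -0.06 to 0.18 for Brca1, -0.13 to 0.07 for Brca2, -0.06 to 0.09 for Chek1, -0.19 to 0.04 for Rad51ap1, -0.21 to 0.00 for Tdg and -0.07 to 0.04 for Ung. The cause was not tested. Over 21 pairs of libraries with the same replicate number, r between their deviations ran from -0.12 to 0.34. The median was 0.06, against -0.03 in the other pairs between groups. It was over 0.1 in 9 of the 21, so the numbers were not taken as pairs. With a term for libraries numbered 1 and 2 against the rest, 0 repair genes were called. That setting called 14 of 18341 genes for the averaged change. With the replicate block, 0 repair genes were called in any comparison and Brca2 averaged 0.13. Every repair gene had 93 or more counts in each library.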
